A study of Mus musculus with 2 samples.

Results

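The cell cycle genes examined here were 42 named genes, counted in single cells of mouse pancreatic islets, out of 22383 genes in the count tables. Each listed symbol was found once, and all 42 had UMIs (unique molecular identifiers, which count single RNA molecules) in the filtered cell barcodes. By role they were 9 genes of G1 and the restriction point, 5 inhibitors of the cyclin-dependent kinases (CDKs), 10 genes of S phase, 17 genes of G2 and mitosis and the chromatin gene Ezh2. Islets of C57BL/6N mice aged 5 weeks were compared between a group labelled wildtype, called control, and a group labelled TBL/RBKO, in which the transcriptional co-factor genes Tbl1x and Tbl1xr1 were targeted in β-cells. Per the methods of the study, both groups carried floxed alleles of both genes, Cre was expressed from the endogenous Ins1 locus, and the controls were littermates without Cre. Each group gave 1 library made from 150 islets pooled from 4 mice and kept overnight in culture with serum. Animals within a pool could not be separated, so no test between the groups was possible. Every interval below is a 95% interval that covers counting error only, and no p-value is given.

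The cell cycle is driven by cyclins that switch on CDKs in turn. In G1, the D cyclins with Cdk4 and Cdk6 phosphorylate the retinoblastoma protein Rb1, which releases E2F transcription factors, and cyclin E with Cdk2 carries the cell past the restriction point. The replication helicase Mcm2 to Mcm7, Pcna and the nucleotide enzymes then serve S phase, and Cdk1 with cyclins A and B drives mitosis. Most islet β-cells are quiescent, with few dividing after the first weeks of life, and in mice Ccnd2 is the D cyclin on which postnatal β-cell growth is known to depend.

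The control library held 7067 barcodes and the library labelled TBL/RBKO 5833, of which 4747 and 4179 had more than 2500 detected genes and under 10% mitochondrial UMIs. These had medians of 40626 and 27425 UMIs. The libraries shared 14 barcode sequences, 12 after the filter, and none of the shared barcodes was cycling as defined below. A barcode was put in the β, α, δ or PP class by the largest of its Ins1 plus Ins2, Gcg, Sst and Ppy UMIs where this reached 100 per 10000 UMIs, and was otherwise called non-hormone. All markers of the class itself stood at 50 or more CPM (counts per 1000000 UMIs) in each hormone class of both libraries. The targeted genes went against the label at this readout: in the β class Tbl1x stood at 96.9 CPM in control and 351 CPM in the library labelled TBL/RBKO, and Tbl1xr1 at 20.0 and 129 CPM. UMIs are read at the 3′ end of a transcript, and whether the deleted part of either gene lies there was not given in the sources used here. Cre had 0 UMIs in the control β class and 3107 UMIs (30.8 CPM) in the other. Markers of other cell types had UMIs in the β class. The 8 macrophage markers, all with UMIs, summed to 74.3 CPM in control and 24.6 CPM in the library labelled TBL/RBKO, the 8 stromal markers to 23.6 and 80.4 CPM, the 5 ductal markers to 183 and 650 CPM, and the 6 acinar markers to 0.0604 and 0.386 CPM. A second hormone at 100 or more UMIs per 10000 was found in 16.1% of the β barcodes of control that were not cycling, against 60.9% in the library labelled TBL/RBKO, and in 59.6% and 20.3% of such α barcodes. The part of these other RNAs in the results below was not tested, beyond the values given with such barcodes left out.

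Cycling barcodes were mostly found in the β class of the control library and in the β class and among non-hormone barcodes of the library labelled TBL/RBKO. A barcode was called cycling when it held UMIs of 3 or more of 6 mitotic genes: Mki67 (the proliferation antigen Ki-67), Top2a (topoisomerase II), Cenpf (a kinetochore protein), Birc5 (survivin, of the chromosomal passenger complex), Ube2c (the ubiquitin-conjugating enzyme of the anaphase-promoting complex) and Cdk1. In the β class, 67 of 2877 control barcodes were cycling, or 2.33% (Clopper-Pearson interval 1.81 to 2.95). The library labelled TBL/RBKO had 37 of 1338, or 2.77% (1.95 to 3.79). The difference, taken as the library labelled TBL/RBKO minus control, was 0.437 percentage points with a Newcombe interval of -0.537 to 1.57, so neither a lower nor a higher share was shown at this depth. The libraries differed in how many β barcodes lay near the limit: in control 38 held 2 of the 6 genes, 7 held 3 and 43 held all 6, while the counts in the library labelled TBL/RBKO were 2, 4 and 27. With 2 genes in place of 3 the order of the shares turned, to 3.65% in control and 2.91% in the library labelled TBL/RBKO, a difference of -0.735 points (-1.81 to 0.483).

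The α class held far fewer cycling barcodes than the β class in both libraries. There were 3 of 1284 in control, 0.234% (0.0482 to 0.681), and 4 of 1546 in the library labelled TBL/RBKO, 0.259% (0.0705 to 0.661). The β share exceeded the α share by 2.10 points (1.43 to 2.73) in control and by 2.51 points (1.65 to 3.54) in the library labelled TBL/RBKO. Barcodes differ in depth, so each was also thinned to 5000 UMIs of genes other than hormones and mitochondrial genes, leaving out 8 shallower β barcodes of control, 0 of the library labelled TBL/RBKO, and 7 and 8 α barcodes. The thinned β shares were 1.64% (1.21 to 2.17) and 2.02% (1.33 to 2.92), and the β share still exceeded the α share by 1.48 points (0.904 to 2.03) and 1.89 points (1.17 to 2.79). The δ class had 1 cycling barcode of 223 in control and 1 of 374 in the library labelled TBL/RBKO, and the PP class 1 of 259 and 2 of 495. At this depth these shares could not be told apart from those of the α class.

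**Figure D1:**
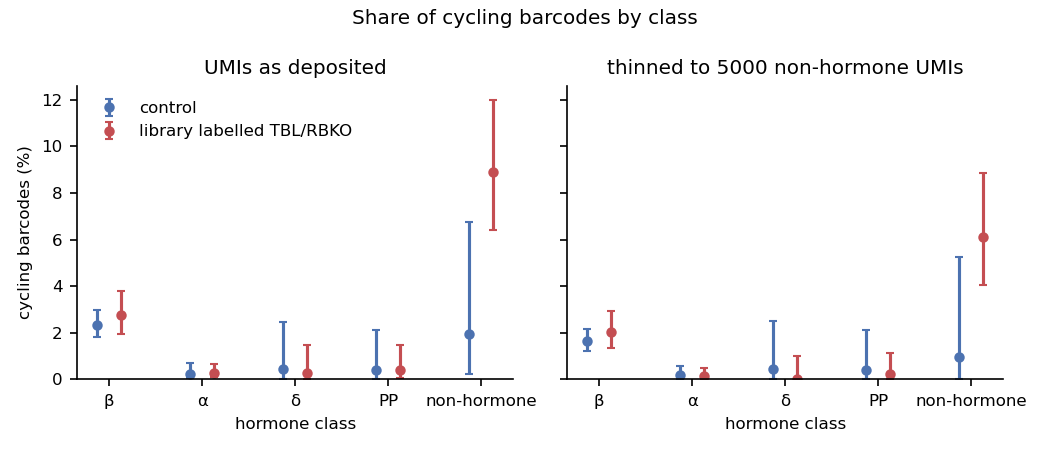
Share of cycling barcodes in percent (vertical axis) by hormone class in the control library (blue) and the library labelled TBL/RBKO (red), from the UMIs as deposited (left) and after thinning to 5000 non-hormone UMIs (right). Points are shares and bars are 95% Clopper-Pearson intervals: the β shares of 2.33% and 2.77% overlap, the α shares stay below 0.3%, and the non-hormone share of the library labelled TBL/RBKO is the highest at 8.92%.

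Cycling β barcodes were rich in detected genes. Their median was 7584 genes in control and 8435 in the library labelled TBL/RBKO, against 5958 and 7072 genes in the other β barcodes. The rule asks for UMIs of 3 genes, which deeper barcodes reach more easily. Median non-hormone UMIs were 36370 and 58047 in cycling β barcodes and 21256 and 38083 in the others. The part of this rule in the number of detected genes was not tested. Of the cycling β barcodes, 60 of 67 in control, 89.6% (79.7 to 95.7), and 33 of 37 in the library labelled TBL/RBKO, 89.2% (74.6 to 97.0), had 6000 or more detected genes. Among the other β barcodes these shares were 48.5% (46.6 to 50.4) and 76.3% (73.9 to 78.6). The filter of the study kept barcodes under 6000 genes. Under that limit 7 cycling β barcodes of 1454 remained in control (0.481%) and 4 of 312 in the library labelled TBL/RBKO (1.28%). The highest doublet scores, marked in each library at 0.8% per 1000 barcodes, included 2 cycling β barcodes of control (2.99%, other β barcodes 10.3%) and 5 cycling β barcodes of the library labelled TBL/RBKO (13.5%, others 8.22%).

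**Figure D2:**
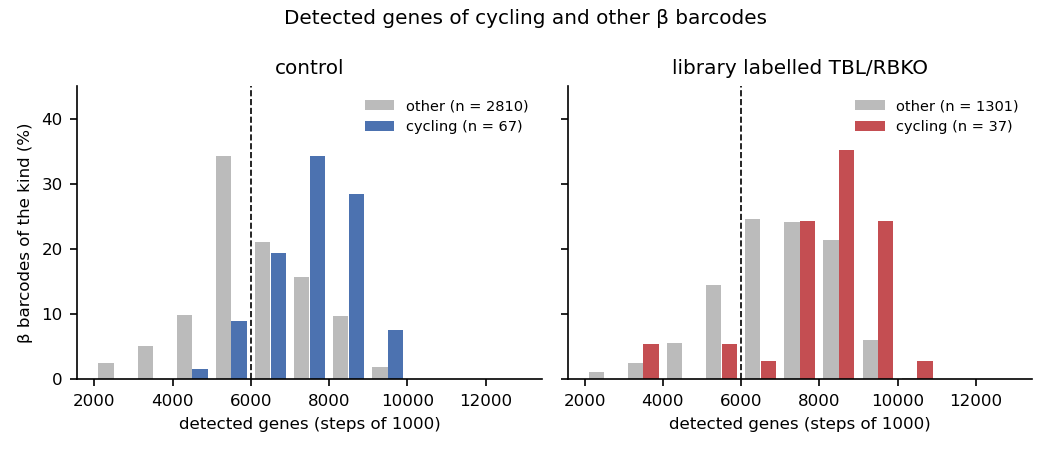
Percent of cycling (coloured) and other (grey) β barcodes by number of detected genes in steps of 1000, for the control library (left; 67 cycling, 2810 other) and the library labelled TBL/RBKO (right; 37 cycling, 1301 other). The dashed line marks 6000 genes, and 60 of 67 and 33 of 37 cycling barcodes lie at or above it.

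Genes that were not used to mark cycling barcodes were also higher in them, with the mitotic genes highest. Cycling and other β barcodes were compared within each library by UMIs per 1000000 without hormones and mitochondrial genes, as a log2 ratio relative to the median of all genes with 100 or more UMIs. Genes at 1 or more above the median are called higher and those at 1 or more below it lower. Of the 36 members outside the 6 marking genes, 35 could be compared in control, of which 27 were higher and 1 was lower, with a median of 2.87. Over all genes compared, 5.46% were higher and 3.98% lower. In the library labelled TBL/RBKO, 25 of 32 were higher and 0 were lower, with a median of 2.85, against 5.60% higher and 4.06% lower over all genes. The barcodes were sorted by genes of the same process, so these values describe the cycling barcodes and test nothing.

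The 10 S phase genes were all higher in both libraries, by 2.07 to 4.40 in control and 2.17 to 4.84 in the library labelled TBL/RBKO. Mcm5, of the replication helicase, went from 2.50 UMIs per 1000000 in other β barcodes to 51.1 in cycling ones in control, and from 1.83 to 33.0 in the library labelled TBL/RBKO. Pcna, the sliding clamp of the DNA polymerases, went from 50.2 to 205 and from 40.4 to 188 UMIs per 1000000. Most S phase UMIs lay outside these barcodes: cycling β barcodes held 18.3% of the UMIs of the 10 genes in control and 21.1% in the library labelled TBL/RBKO, where they held 3.48% and 3.79% of the UMIs of all genes. The mitotic genes were far more concentrated, with 84.1% and 79.2% of the UMIs of the 11 unused G2 and mitosis genes in cycling barcodes. Ccnb1 (cyclin B1) had 255 UMIs in 67 cycling barcodes and 9 in 2810 others of control, a log2 ratio of 9.66 (8.71 to 10.80), and 145 and 9 UMIs in the library labelled TBL/RBKO, 8.68 (7.71 to 9.83). Tpx2, a spindle assembly factor, stood at 8.55 and 7.94. Ezh2, the histone H3 lysine 27 methyltransferase, was higher by 3.04 and 2.77.

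The promoters of 6 S phase and mitosis members are shown because these genes were high together in the same barcodes. They are the 250 bases before the RefSeq transcription start (GRCm38.p6), read 5′ to 3′ on the strand of the gene, and capitals mark 3 motifs: the CHR element of mitotic promoters (TTTGAA or TTCGAA), the CCAAT box (CCAAT) and the E2F element (TTT, then a pair of bases that are each C or G, then CGC), each on either strand.
Cdk1, chr10:69352913-69353162, minus strand: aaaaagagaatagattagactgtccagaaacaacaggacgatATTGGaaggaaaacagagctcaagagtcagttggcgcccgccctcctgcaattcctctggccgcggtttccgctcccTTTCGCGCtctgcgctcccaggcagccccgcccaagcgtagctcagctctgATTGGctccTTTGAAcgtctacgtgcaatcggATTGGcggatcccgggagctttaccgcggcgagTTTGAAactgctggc
Ccnb1, chr13:100786487-100786736, minus strand: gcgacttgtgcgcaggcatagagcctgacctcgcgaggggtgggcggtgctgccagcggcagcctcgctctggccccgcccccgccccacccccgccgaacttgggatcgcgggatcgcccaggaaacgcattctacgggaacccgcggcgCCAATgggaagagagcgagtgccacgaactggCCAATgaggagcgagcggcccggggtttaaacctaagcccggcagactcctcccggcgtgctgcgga
Ccnb2, chr9:70421555-70421804, minus strand: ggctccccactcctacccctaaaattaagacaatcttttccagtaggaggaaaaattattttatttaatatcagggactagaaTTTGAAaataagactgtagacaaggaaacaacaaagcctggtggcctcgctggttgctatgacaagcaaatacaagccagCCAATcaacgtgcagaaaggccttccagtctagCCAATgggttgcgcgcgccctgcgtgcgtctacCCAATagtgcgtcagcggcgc
Plk1, chr7:122159185-122159434, plus strand: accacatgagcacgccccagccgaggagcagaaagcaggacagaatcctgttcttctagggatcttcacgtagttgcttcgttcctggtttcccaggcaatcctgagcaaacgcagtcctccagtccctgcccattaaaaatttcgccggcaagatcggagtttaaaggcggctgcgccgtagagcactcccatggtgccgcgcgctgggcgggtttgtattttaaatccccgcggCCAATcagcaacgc
Mcm5, chr8:75109259-75109508, plus strand: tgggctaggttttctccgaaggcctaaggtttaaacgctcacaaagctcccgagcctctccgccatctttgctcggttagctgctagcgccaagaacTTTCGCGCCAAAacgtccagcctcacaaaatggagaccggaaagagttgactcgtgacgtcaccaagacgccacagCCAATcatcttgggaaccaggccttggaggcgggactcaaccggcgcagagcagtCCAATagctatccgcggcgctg
Mcm6, chr1:128359706-128359955, minus strand: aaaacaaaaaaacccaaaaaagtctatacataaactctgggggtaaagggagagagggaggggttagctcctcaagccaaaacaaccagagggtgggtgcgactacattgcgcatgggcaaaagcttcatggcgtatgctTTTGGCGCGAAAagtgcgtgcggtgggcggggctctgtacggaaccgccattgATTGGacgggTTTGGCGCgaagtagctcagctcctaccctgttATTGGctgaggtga
RefSeq windows were found for 33 of the 42 members. A CCAAT box was held by 11 of 13 windows of G2 and mitosis genes (84.6%) and 9 of 10 of S phase genes (90.0%), and by 33.8% of all 32851 mouse windows of this length. The CHR letters were in 6 of 13 G2 and mitosis windows (46.2%), 2 of 10 S phase windows and 17.1% of all windows. E2F letters were in 3 of 10 S phase windows (30.0%), 1 of 13 G2 and mitosis windows and 1.86% of all windows. In Cdk1 a CHR element ended 10 bases before the start with a CCAAT box on the other strand 48 to 44 bases before it. The 2 E2F matches of Mcm5 overlapped on opposite strands, as did 2 of the 3 of Mcm6, and in these 6 promoters no other marked motifs overlapped. A match is a description of the letters, and binding was not measured.

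The G1 genes and inhibitors were not uniform in the cycling barcodes. The D cyclins were near the median of all genes: Ccnd1 stood at -0.33 in control and 0.20 in the library labelled TBL/RBKO, Ccnd2 at -0.42 and -0.14, and Ccnd3 at 0.12 and -0.29. Ccne1 (cyclin E1) was higher by 2.58 and 3.31, Cdk2 by 2.77 and 2.13, and E2f1 by 1.95 and 2.12. Cdk4 stood at 0.68 and 0.70 and Rb1 at 0.46 and 0.40. Cdk6 had 3 UMIs in cycling barcodes of control and 14 in those of the library labelled TBL/RBKO, for -1.82 (-4.11 to -0.26) and 1.24 (0.33 to 2.03). Among the inhibitors, Cdkn2c (p18, an inhibitor of Cdk4 and Cdk6) was higher by 3.51 (3.35 to 3.68) in control and 3.56 (3.20 to 3.91) in the library labelled TBL/RBKO. UMIs of it were found in 86.6% and 73.0% of the cycling barcodes and in 28.6% and 14.4% of the others, at median depths of 36370 and 58047 UMIs without hormones and mitochondrial genes in the cycling barcodes and 21256 and 38083 in the others. Cdkn1a (p21, a broad CDK inhibitor and p53 target) was higher by 1.95 and 1.40. Cdkn2a, whose locus encodes p16 and p19Arf, which 3′ UMIs do not separate, was higher by 2.78 (2.13 to 3.39) in control and had 11 and 28 UMIs in the library labelled TBL/RBKO. Cdkn1b (p27) stood at 0.25 and 0.03, and Cdkn1c (p57) at 0.11 and 0.59 with intervals that held 0.

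**Figure D3:**
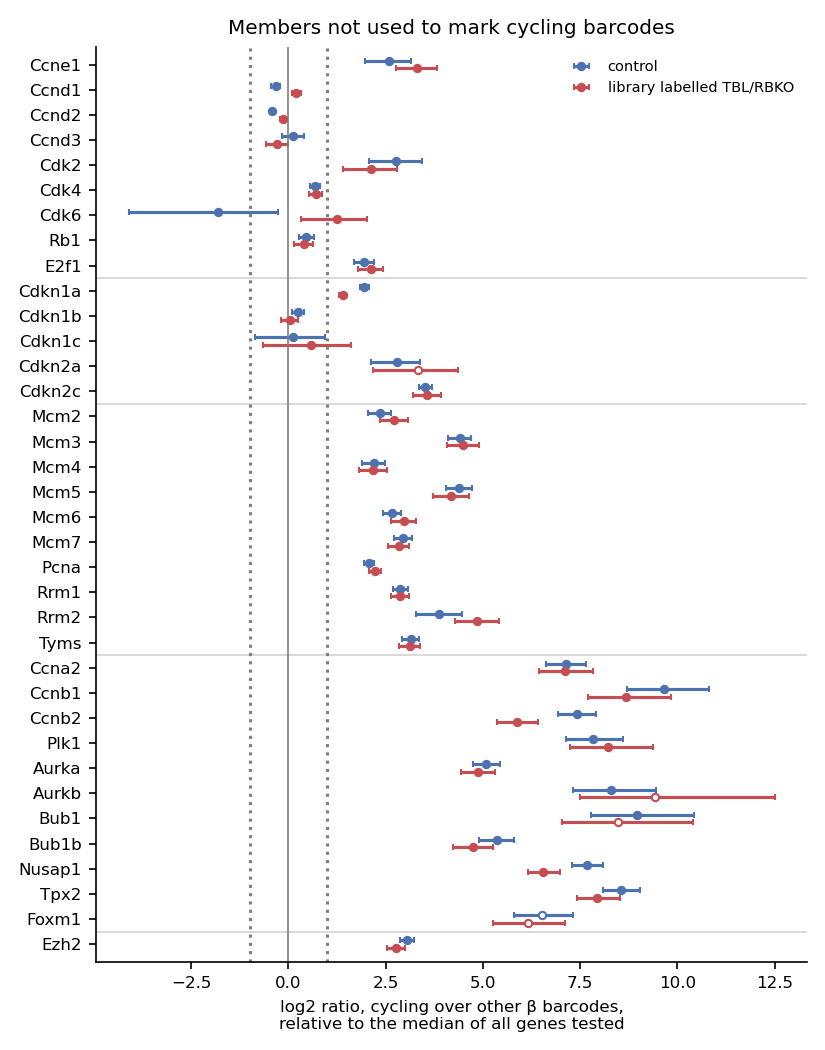
Log2 ratio of UMIs per 1000000 without hormones and mitochondrial genes, cycling over other β barcodes and relative to the median of all genes compared (horizontal axis), for the 36 members not used to mark cycling barcodes, in the control library (blue) and the library labelled TBL/RBKO (red). Bars are 95% counting intervals, open points had under 100 UMIs, dotted lines mark 1 and -1, and grey lines part the roles: G1 genes, inhibitors, S phase, G2 and mitosis, and Ezh2; the D cyclins lie near 0 and Ccnb1 of control lies highest of the filled points at 9.66.

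Further genes of the same processes were higher too. Over all genes compared, 5.46% were higher and 3.98% lower in control, and 5.60% and 4.06% in the library labelled TBL/RBKO. As above, the barcodes were sorted by genes of the same process, so the counts of cell cycle genes here test nothing. Of 26 further replication genes, 23 of 23 with enough UMIs were higher in cycling β barcodes of control and 20 of 20 in the library labelled TBL/RBKO, with medians of 3.37 and 2.91. Of 35 further mitosis genes, 31 of 32 and 28 of 29 were higher, with medians of 6.78 and 5.86. Cdc20, the activator of the anaphase-promoting complex, stood at 8.59 and 8.01. Of 31 further G1 and quiescence genes, 13 of 29 and 12 of 27 were higher and 0 and 1 lower. The inhibitor Cdkn2d (p19) was higher by 2.68 and 2.60, while Cdkn2b (p15) stood at -0.35 and -0.03. No member of the list of 10 β-cell maturity genes was past 1 in either direction in either library, with Mafa at -0.74 in control and 0.18 in the library labelled TBL/RBKO and Slc2a2, the glucose transporter, at -0.77 and -0.02. Leaving out barcodes with a second hormone left 16 cycling β barcodes in the library labelled TBL/RBKO and 18 members with enough UMIs, of which 12 were higher and 0 lower. Without barcodes holding UMIs of 3 or more markers of 1 non-endocrine cell type, 22 cycling barcodes were left there, and 16 of 22 members were higher. The shares of all genes were not computed with these barcodes left out, so these counts cannot be read against them.

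Over all β barcodes, 3 of the 42 cell cycle genes differed in level between the libraries by 1 or more on the log2 scale, and these were the CDK inhibitors Cdkn1a, Cdkn2a and Cdkn2c. Levels are CPM of the summed UMIs of the class, and ratios are of the library labelled TBL/RBKO over control, on the log2 scale and relative to the median of all 15019 genes with 20 or more UMIs. That median was 0.32 before centring, and -0.13 when hormones and mitochondrial genes were left out of the totals, and insulin made up 49.6% of the β UMIs of control and 27.9% in the library labelled TBL/RBKO. All 42 members had enough UMIs. At 1 or more from the median, 1 member was higher and 2 were lower, where 9.91% of all genes were higher and 4.57% lower, so the share of lower members was near that of all genes. The members' median was -0.22. Without centring, 3 members were higher (Cdkn1a, Ccnd3 and Cdk2) and 2 lower, against 15% and 2.75% of all genes, the members' median was 0.10, and members within 0.32 below the median turned to the other side of 0. Among barcodes under 6000 genes, the limit of the study, 10 of 39 members were past 1: Birc5, Cdk1, Ccna2, Cdkn1a, Rrm2, Bub1b and Tpx2 higher, and Cdk6, Cdkn2a and Cdkn2c lower. Of all genes 8.73% were higher and 6.96% lower there, so the share of lower members was again near that of all genes. The share of higher members, 7 of 39, was above it. Birc5 and Cdk1 mark cycling barcodes, of which this set held 7 of 1454 β barcodes in control and 4 of 312 in the library labelled TBL/RBKO. The part of cycling barcodes in these levels was not tested.

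The 5 inhibitors spread from -1.72 to 1.28. Cdkn1a (chr17:29309936-29319701, GRCm39) had a level of 39.5 CPM (38.6 to 40.4) in the control β class and of 120 CPM (118 to 122) in the library labelled TBL/RBKO, for a relative log2 ratio of 1.28 (1.24 to 1.32). Thinned to 5000 non-hormone UMIs, a Cdkn1a UMI was held by 23.2% (21.7 to 24.8) of control β barcodes. In the library labelled TBL/RBKO 39.9% (37.3 to 42.6) held one. Thinned shares of other groups lay on both sides of these, with 19.6% and 20.3% in the α class. With macrophage, endothelial and stromal markers they were 25.0% and 53.8%, 88.5% and 88.2%, and 61.8% and 41.7%. Barcodes with B cell markers, found only in the library labelled TBL/RBKO, had 3 of 62 (4.84%, median depth 14827), which sets no background for control. Cdkn2c (chr4:109517957-109524386) had 7.99 CPM (7.59 to 8.41) in control and 3.03 CPM (2.70 to 3.39) in the other library, a ratio of -1.72 (-1.90 to -1.54). The thinned shares were 8.05% (7.08 to 9.11) and 2.69% (1.89 to 3.71), where 0 of 26 control barcodes and 0 of 34 barcodes of the library labelled TBL/RBKO with endothelial markers held a UMI, at median depths of 21450, 38667, 37147 and 11091 non-hormone UMIs in that order. The Clopper-Pearson upper bounds of these 0s, 13.2% and 10.3%, lie above both β shares, so they set no lower background. Cdkn2a (chr4:89192708-89212890) had 144 UMIs (0.791 CPM) and 39 UMIs (0.386 CPM), a ratio of -1.36 (-1.91 to -0.84). Without barcodes holding a second hormone the Cdkn2a ratio was -0.58 (-1.26 to 0.04), while Cdkn1a and Cdkn2c stayed past 1 at 1.35 and -1.42. Cdkn1b stood at 47.7 and 48.0 CPM, a ratio of -0.31 (-0.36 to -0.26), and Cdkn1c at 1.80 and 1.42 CPM, a ratio of -0.67 (-0.96 to -0.38).

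None of the 9 G1 genes reached 1 in either direction relative to the median, though Ccnd3 and Cdk2 did without centring, and Cdk6 was lower by 1 or more among barcodes under 6000 genes. Ccnd2 (chr6:127102125-127129156) stood at 555 CPM in control and 414 CPM in the library labelled TBL/RBKO, a ratio of -0.75 (-0.76 to -0.73), and at -0.42 without centring. Ccnd3 went the other way, from 16.3 to 35.6 CPM, 0.80 (0.73 to 0.87), and 1.12 (1.05 to 1.19) without centring. Ccnd1 stood at 109 and 156 CPM, 0.20 (0.17 to 0.23). Cdk2, the partner of cyclin E, stood at 0.681 and 1.42 CPM, 0.73 (0.38 to 1.09) and 1.06 without centring, and Ccne1 at 0.983 and 1.52 CPM, 0.30 with an interval that held 0. The kinases of the D cyclins were near the median, with Cdk4 at 47.3 and 52.5 CPM (-0.17) and Cdk6 at 1.67 and 1.63 CPM (-0.36). Rb1 stood at 26.7 and 29.3 CPM (-0.19) and E2f1 at 6.23 and 6.32 CPM (-0.30). Among the D cyclins, Ccnd2 was thus lower and Ccnd3 and Ccnd1 higher, with and without centring.

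The S phase and mitotic genes of all β barcodes kept close to all other genes. Among barcodes under 6000 genes, Birc5, Cdk1, Ccna2, Rrm2, Bub1b and Tpx2 were higher by 1 or more, as given above. The 10 S phase genes ranged from -0.80 for Mcm6 (6.37 and 4.57 CPM) to 0.57 for Rrm2, a subunit of ribonucleotide reductase (0.615 and 1.14 CPM), with a median of -0.13. The 17 G2 and mitosis genes ranged from -0.57 for Cenpf to 0.21 for Birc5, with a median of -0.24. Mki67 stood at 7.31 and 7.72 CPM (-0.24), Top2a at 10.3 and 10.7 CPM (-0.27) and Cdk1 at 2.99 and 3.63 CPM (-0.04). Ezh2 stood at 7.82 and 8.54 CPM (-0.20). Without the cycling barcodes, 39 members had enough UMIs, with Cdkn1a higher and Cdkn2a and Cdkn2c lower. Of all genes 9.73% were higher and 4.80% lower in that setting. Mki67, Top2a and Cdk1 were also past -1 there, but they are among the genes that mark cycling barcodes, so what remained of them was set by that rule. They had 161, 185 and 37 UMIs in the remaining β barcodes of control and 34, 34 and 9 in the library labelled TBL/RBKO.

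**Figure D4:**
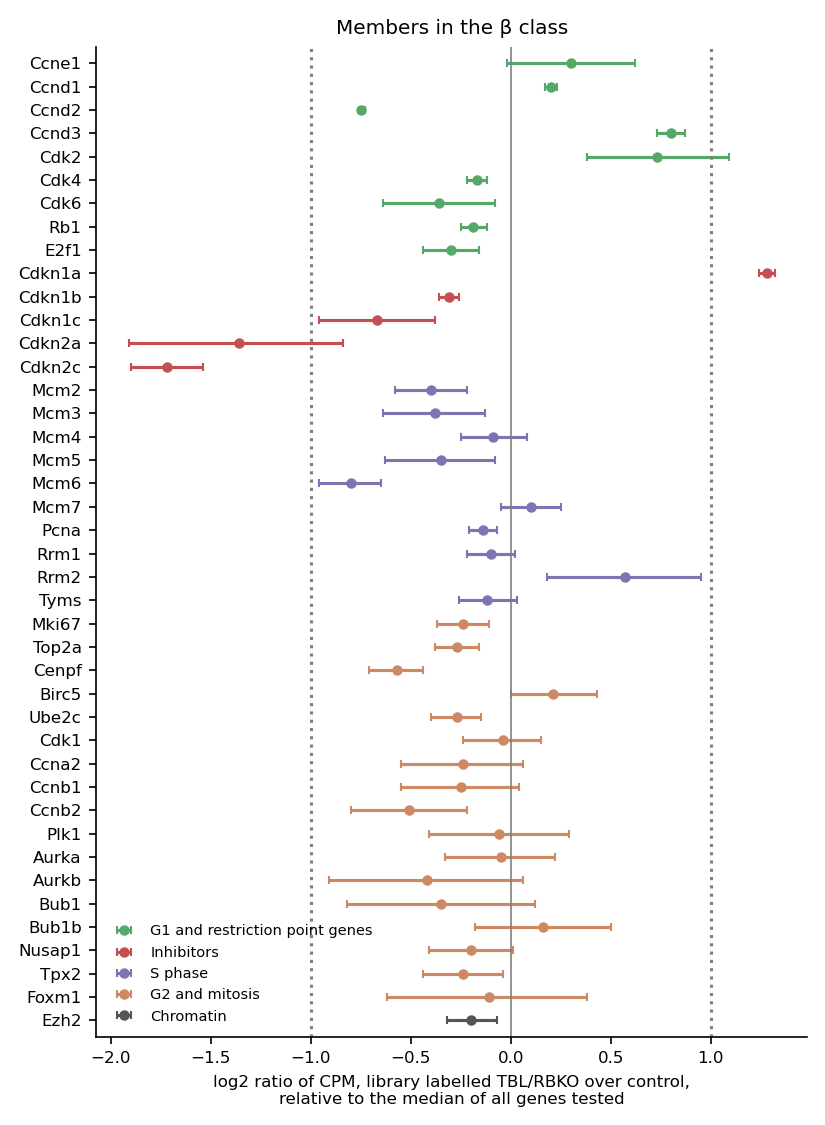
Log2 ratio of CPM in the β class, the library labelled TBL/RBKO over control and relative to the median of all 15019 genes tested (horizontal axis), for the 42 members, coloured by role. Bars are 95% counting intervals and dotted lines mark 1 and -1: Cdkn1a at 1.28 lies above, Cdkn2a at -1.36 and Cdkn2c at -1.72 lie below, and all others lie between.

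Few genes of the further lists were past 1 in the β class, where 9.91% of all genes were higher and 4.57% lower. The shares of lower genes in the mitosis and G1 lists below were near that of all genes. Of 26 further replication genes 1 was higher, Cdca7, a chromatin factor of S phase, at 0.274 and 1.28 CPM (1.90, 1.41 to 2.40), and 0 were lower, with a median of -0.22. Of 35 further mitosis genes 0 were higher and 1 was lower, the spindle checkpoint kinase Ttk (-1.14, -1.71 to -0.61), with a median of -0.35. Of 31 further G1 and quiescence genes 30 could be compared, of which Cables1 was higher (1.08) and 2 were lower: Cdkn2b, which neighbours Cdkn2a in the genome, at 9.23 and 5.62 CPM (-1.04, -1.18 to -0.90), and E2f2 (-1.09, -1.36 to -0.82). These 5 genes are named because they were past 1.

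The cycling β barcodes of both libraries were also compared with each other, 67 against 37. Of 41 members with 20 or more UMIs, 1 was higher and 1 lower by 1 or more, where 5.08% of all genes were higher and 3.59% lower, and the members' median was -0.21. Neither share of members was above that of all genes. Rrm2 was the higher one, at 6.38 and 15.3 CPM (1.09, 0.48 to 1.71), and Cdkn2c the lower one, with 70.0 CPM (63.4 to 77.0) in control and 24.3 CPM (19.7 to 29.7), a ratio of -1.70 (-2.03 to -1.37). Cdkn1a stood at 145 and 285 CPM in these barcodes, 0.81 (0.68 to 0.94), and Ccnd1 at 90.5 and 171 CPM, 0.75 (0.58 to 0.91). The ratio of Cdkn2c over all β barcodes was -1.72. Of the cycling β barcodes of the library labelled TBL/RBKO 8 of 37 held a Cre UMI, 21.6% (9.83 to 38.2), and of the others 266 of 1301, 20.4% (18.3 to 22.7). UMIs of 3 or more markers of 1 non-endocrine cell type were found in 15 of the 37 and in 23.0% of the others, mostly markers of ductal cells (12 of 37, others 20.9%). Of the 5 ductal markers Spp1 had UMIs in 67.6% of the cycling and 41.7% of the other β barcodes of this library, Sox9 in 21.6% and 10.6%, Krt19 in 37.8% and 33.9%, Krt7 in 100% and 98.9%, and Cftr, the chloride channel of duct cells, in 2.70% and 1.08%, at the unequal depths given above.

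Compared with the α class of its own library, the β class had higher levels of most mitotic genes. Of the 42 members, 20 were higher in β than in α barcodes of control by 1 or more and 2 were lower, where 11.3% of all genes were higher and 10.0% lower. In the library labelled TBL/RBKO 17 were higher and 2 lower, where 13.6% were higher and 10.6% lower. Of the 17 G2 and mitosis genes 15 were higher in control and 14 in the library labelled TBL/RBKO, where the β class also held most cycling barcodes of the hormone classes. Ccnd1 and E2f1 were higher in both libraries. The lower ones were Cdk6 and Cdkn1c in both libraries. Cdk6 stood at -1.39 (-1.64 to -1.13) and -1.97 (-2.25 to -1.69), and Cdkn1c, a maternally expressed imprinted gene, at -1.45 (-1.69 to -1.21) and -1.59 (-1.91 to -1.28). Cdkn1a was nearly level in control, 0.24 (0.16 to 0.32), and higher in the β class of the library labelled TBL/RBKO, 1.25 (1.19 to 1.32).

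Within the α class itself the libraries were close. Of 40 members with enough UMIs, 2 were higher and 0 lower, where 2.89% of all genes were higher and 1.86% lower, and the members' median was 0.02. The higher ones rested on few UMIs: Ccnb1 had 5 and 19 (1.61, 0.14 to 3.38) and Rrm2 11 and 30 (1.13, 0.09 to 2.27). Without the 3 and 4 cycling α barcodes 0 of 34 members were higher and 1 was lower, Ube2c, itself a gene that marks such barcodes. Of all genes 2.39% were higher and 2.06% lower there, so the share of lower members was near that of all genes. Cdkn1a stood at 57.3 and 72 CPM in the α class (0.23), Cdkn2c at 8.58 and 7.15 CPM (-0.36) and Ccnd2 at 601 and 555 CPM (-0.21).

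In the PP class Cdkn1a and Cdkn2c were past 1 in the same directions as in the β class. Cdkn1a stood at 43.7 and 119 CPM, a ratio of 1.20 (1.06 to 1.34), and Cdkn2c at 8.56 and 3.19 CPM, a ratio of -1.67 (-2.14 to -1.20). In all 2 of 33 members were higher and 6 lower there, where 7.17% of all genes were higher and 2.92% lower. The other higher one was Ccne1 (1.25, -0.03 to 2.80), and the other lower ones, Top2a, Cenpf, Ube2c, Cdk1 and Nusap1, ran from -1.11 to -2.90. The 1 cycling PP barcode of control held all 40 Ube2c UMIs of its class, 39 of 44 of Top2a, 26 of 30 of Cenpf and 19 of 25 of Cdk1. Cre had 43 UMIs in the PP class of the library labelled TBL/RBKO (2.05 CPM). Without cycling barcodes, 2 of 25 members were higher, Ccne1 and Cdkn1a, and 1 was lower, Cdkn2c. Of all genes 7.12% were higher and 2.81% lower there, so both shares of members were near those of all genes. Top2a, Cenpf, Ube2c and Cdk1, which mark such barcodes, had too few UMIs to be compared. In the δ class 2 of 32 members were higher and 3 lower, where 2.48% of all genes were higher and 1.38% lower. The lower ones were Cenpf (-1.07), Ube2c (-1.37) and Cdk1 (-1.29), and 48 of the 49 Ube2c UMIs of control lay in 1 barcode. E2f1 was higher with 6 and 31 UMIs (1.40, 0.12 to 2.95), and Cdk6 with 7 and 30 UMIs (1.13, -0.08 to 2.56). Cenpf, Ube2c and Cdk1 mark cycling barcodes, and without such barcodes they had too few UMIs to be compared. In that setting 3 of 23 members were higher, Cdk6, E2f1 and Mcm5, and 0 lower, where 2.56% of all genes were higher and 1.25% lower. Cdkn1a of the δ class stood at 42.7 and 81.6 CPM (0.92, 0.71 to 1.14) and Cdkn2c at 5.41 and 4.14 CPM with an interval that held 0.

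**Figure D5:**
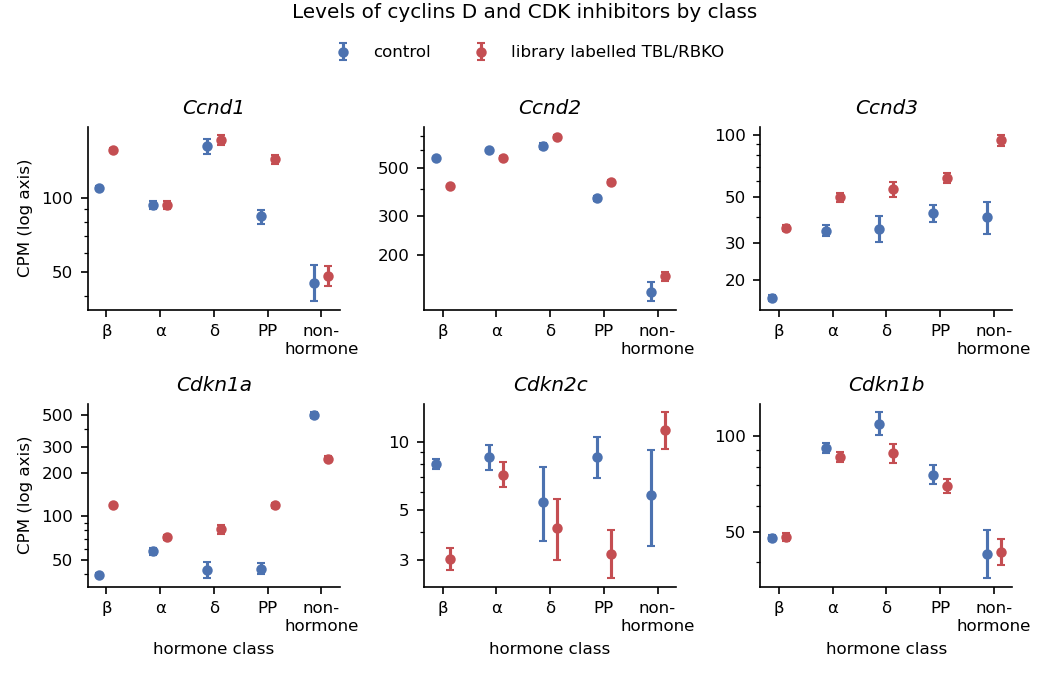
CPM on log axes (vertical; each panel has its own range) of the 3 D cyclins and of Cdkn1a, Cdkn2c and Cdkn1b by hormone class (horizontal) in the control library (blue) and the library labelled TBL/RBKO (red). Points are levels of the summed UMIs and bars exact 95% Poisson intervals; Cdkn1a is higher in the red library in every hormone class, from 39.5 against 120 CPM in β, and lower in non-hormone barcodes, 500 against 249 CPM.

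The non-hormone barcodes differed most between the libraries. Of these, 2 of 104 were cycling in control, 1.92% (0.234 to 6.77), and 38 of 426 in the library labelled TBL/RBKO, 8.92% (6.39 to 12), a difference of 7.0 points (1.63 to 10.4). They made up 2.70% of all 74 cycling barcodes of control and 46.3% of the 82 of the library labelled TBL/RBKO, where the β class made up 90.5% and 45.1%. The cell types among them differed too. The largest group of the library labelled TBL/RBKO held 3 or more markers of no type, 136 barcodes with 1 cycling (0.735%), against 6 with 0 cycling in control, and ductal-marker barcodes numbered 26 with 1 cycling against 1 with 0 cycling. Barcodes with UMIs of 3 or more of 6 B cell markers numbered 0 in control and 62 in the library labelled TBL/RBKO, and 20 of these 62 were cycling, 32.3% (20.9 to 45.3). Stromal-marker barcodes were cycling in 2 of 34 in control and in 13 of 108, 12% (6.57 to 19.7), in the library labelled TBL/RBKO. Macrophage-marker barcodes were cycling in 0 of 36, with a Clopper-Pearson upper bound of 9.74%, and in 2 of 52. Endothelial-marker barcodes were cycling in 0 of 26 and 0 of 35, with upper bounds of 13.2% and 10.0%. Without the B cell-marker barcodes 18 of 364 barcodes of the library labelled TBL/RBKO were cycling, 4.95%, and the difference of 3.02 points had an interval that held 0 (-2.12 to 6.09). The interval also reached 0 among barcodes under 6000 genes (5.40, -0.0174 to 8.28). B cell markers and groups cannot be told apart here, since all such barcodes lay in 1 library.

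Most members had higher levels in the non-hormone barcodes of the library labelled TBL/RBKO. All 42 had enough UMIs, 25 were higher and 3 lower, where 16.7% of all genes were higher and 8.15% lower, and the members' median was 1.18. By role, 15 of the 17 G2 and mitosis genes, 6 of the 10 S phase genes, 3 of the 9 G1 genes and Ezh2 were higher. Mki67 stood at 12.9 and 56.8 CPM (2.05, 1.58 to 2.55), Birc5 at 6.77 and 40.9 CPM (2.50, 1.87 to 3.21) and Ccne1 at 1.29 and 13.1 CPM (3.26, 1.87 to 5.15). Ccnd3 was higher, at 40.0 and 94.1 CPM (1.14, 0.87 to 1.43), and stood at 239 CPM in the B cell-marker barcodes. Of the others, Foxm1, a transcription factor of mitotic genes, had an interval that held 0 (1.16, -0.07 to 2.68). Without cycling barcodes 6 of 30 members were higher, Top2a and Ube2c of the marking genes among them, and 3 lower. Of all genes 16.1% were higher and 7.91% lower there, so both shares of members were near those of all genes. Without B cell-marker barcodes 14 of 42 members were higher and 2 lower, where 15.9% of all genes were higher and 7.93% lower.

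The 3 lower members were inhibitors. The share of lower members was near that of all genes, of which 8.15% were lower in this class. Cdkn1a stood at 500 and 249 CPM (-1.10, -1.19 to -1.01), Cdkn1c at 18.7 and 5.81 CPM (-1.78, -2.33 to -1.23) and Cdkn2a at 10.6 and 4.01 CPM (-1.5, -2.20 to -0.79). Within marker groups Cdkn1a differed in both directions. It stood at 709 and 420 CPM in endothelial-marker barcodes, 665 and 389 CPM in stromal-marker barcodes, 96.8 and 266 CPM in macrophage-marker barcodes, and 3.94 CPM in the B cell-marker barcodes. Without the latter the Cdkn1a ratio was -0.91 (-1.0 to -0.82), short of 1. In macrophage-marker barcodes it was higher in the library labelled TBL/RBKO, as in the hormone classes, and in endothelial- and stromal-marker barcodes lower.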

How the data were processed

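Islet cells were dissociated and single-cell libraries were made with 10x Chromium 3′ v3.1 chemistry, 1 library per group. The deposited values are raw UMI counts per gene and barcode. Before deposit the authors aligned and counted the reads, and the submitters' processing notes name Cell Ranger 7.1.0 and the mouse genome GRCm39 (mm39). The counts were not normalised. No annotation of cells was used. Barcodes with more than 2500 detected genes and under 10% mitochondrial UMIs were kept. The filter of the study had an upper limit of 6000 genes, which is given here as an alternative. Members with under 20 UMIs over both libraries in a class were not compared there.

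The members are the genes of the given list, all of them are described, and they and the further lists were chosen with earlier results of these data known. UMIs were summed per library and class and scaled to CPM. Ratios were centred on the median of all genes compared. The minimum of 100 UMIs in the comparison of cycling with other barcodes was chosen after seeing the data. Intervals were Clopper-Pearson for shares, Newcombe for differences of shares, exact Poisson for CPM and conditional binomial for ratios, at the 95% level. They cover counting error only. With 1 library per group no test was run, and differences between animals, cultures or runs cannot be told apart from the groups. Doublets were scored with Scrublet (scanpy 1.11.5). Its automatic threshold marked 1 barcode in the library labelled TBL/RBKO (0.0187%) and so did not work, and the highest scores at a rate of 0.8% per 1000 barcodes were used in its place as an alternative. Promoter windows came from RefSeq (GRCm38.p6) and gene positions from the GRCm39 annotation. The ratio and interval code was tested on simulated data. Python 3.11.15, numpy 2.4.6, scipy 1.17.1, pandas 2.3.3 and matplotlib 3.10.9 were used.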

Additional observations from a re-analysis of the deposited data

Results flagged for a closer look

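For 6 members the log2 ratio of the library labelled TBL/RBKO over control, relative to the median of all genes compared, was past 1 in opposite directions in different cell classes. Each library is a single sample, so these differences between classes were not tested. Top2a stood at 1.94 in non-hormone barcodes and -1.20 in the PP class. Cenpf stood at 1.98 in non-hormone barcodes, -1.07 in the δ class and -1.83 in the PP class. Ube2c stood at 1.21, -1.37 and -2.90 in the same order, and Cdk1 at 1.64, -1.29 and -1.72. Nusap1 stood at 1.55 in non-hormone barcodes and -1.11 in the PP class. These 5 are G2 and mitosis genes. Top2a, Cenpf, Ube2c and Cdk1 mark cycling barcodes, and without such barcodes those named as lower in the δ or PP class had too few UMIs to be compared there. Cdkn1a stood at 1.28 in the β class and 1.20 in the PP class, and at -1.10 in non-hormone barcodes. Without the cycling barcodes Cdkn1a was still higher in β and PP and lower in non-hormone barcodes.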

How the results depend on the processing

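The difference in cycling share of the β class turned to -0.735 points when 2 of the 6 genes sufficed, with an interval that held 0 as in the other settings. Under the 9 further alternatives it ran from -0.129 to 0.889 and every interval held 0. The number of β members past 1 was 10 among barcodes under 6000 genes, 5 without centring and, in an alternative added after seeing the data, 6 without cycling barcodes (3 of them genes that mark such barcodes), against 3 as reported. Cdkn1a and Cdkn2c were past 1 in the same direction in all 10 alternatives for the β class, and Cdkn2a in all but the one without second-hormone barcodes (-0.58). Among barcodes under 6000 genes the interval of Cdkn2a held 0 (-1.58, -3.92 to 0.07). Of all values recomputed, 74 stayed within the counting interval of the reported value or, for counts of genes, within 1.5 times of it, and 34 did not. No value past 1 reversed. No paired analysis was possible because each group has 1 library, and for the same reason no replicate could be left out. Depth limits the δ, PP and control non-hormone shares most, with 1 or 2 cycling barcodes each.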

Other observations

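Barcodes outside the filter also held cycling ones. Among barcodes with 2500 detected genes or fewer, 2 of 2017 in control (0.0992%) and 4 of 1335 in the library labelled TBL/RBKO (0.300%) held UMIs of 3 or more of the 6 mitotic genes. Among those with more genes and 10% or more mitochondrial UMIs there were 5 of 303 (1.65%) and 1 of 319 (0.313%).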
